A study of Homo sapiens and Mus musculus with 21 samples.

Results

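Histone-high S phase thymocytes are thymus cells with many copies of a replication histone transcript and few transcripts of genes that peak in G2 and mitosis. They were chosen in 2 single-cell libraries by UMI counts, where a UMI (unique molecular identifier) stands for 1 captured RNA molecule. A cell had to have at least 500 genes, under 10% of its UMIs in mitochondrial genes, at least 10 UMIs of the histone H2A gene Hist1h2ap, fewer than 5 UMIs of Ube2c, Nusap1 and Cenpf together, and none of Il2ra, Lyz2 or Cd79a. This selection kept 343 of the 16079 cells that passed the cell filters, out of 17918 barcodes. They were 55 of 8818 control cells (0.624%, exact 95% interval 0.470 to 0.811%) and 288 of 7261 knockout cells (3.97%, 3.53 to 4.44%).

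The study addressed the RNA helicase DHX15 in acute leukemia and in the normal thymus. The cells came from whole thymus of mice 6 weeks old, either with a floxed Dhx15 gene (DHX15-flox, the control) or with Dhx15 deleted (DHX15-KO, the knockout), with 1 library for each genotype. The sources used here do not state the Cre driver of the deletion or the number of mice behind each library. Bulk data on a human leukemia line in the same series were not used here.

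With 1 library per genotype no difference below has a replicate check, and no p-value is given. Intervals are exact 95% intervals that cover counting error only. Levels are CPM, a gene's UMIs scaled to a total of 1000000 UMIs over the selected cells of a library, and a ratio is the knockout CPM over the control CPM. A gene was called higher or lower when this ratio was at least 1.5-fold in either direction. The ratio also mixes changes inside cells with changes in which cells met the criteria.

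Cells in S phase copy their DNA once and must package the new copies. The histone genes active in replication are transcribed almost only then, and their messages end in a stem loop bound by Slbp rather than in a poly(A) tail, so a method that primes on poly(A) sees a minority of them. Thymocytes divide in a burst after the pre-T-cell receptor has formed, while they pass from the stage with neither CD4 nor CD8 to the double positive stage with both, and most double positive cells then rest. Dhx15 is a DEAH-box helicase that takes spliceosomes apart and acts in ribosome assembly, switched on by partner proteins with a G-patch domain.

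The criteria act on raw counts and so on the depth of each cell. The selected cells were deep in both libraries, with a median of 16829 UMIs per cell in control (1971 to 43312) and 15619 in knockout (2633 to 39607), while all filtered cells had medians of 3710 and 7197. With every cell of at least 5000 UMIs thinned to 5000 before the selection, 105 of 2605 control cells (4.03%, 3.31 to 4.86%) and 424 of 4795 knockout cells (8.84%, 8.05 to 9.68%) met the criteria. The knockout share was thus above the control share in the raw and in the thinned count, by a smaller factor in the thinned count. Ratios, medians and gene counts given below with thinned cells come from these cells, selected anew after thinning. They differ from the main values in both depth and cell choice. Shares of cells given below after thinning come instead from cells selected in raw counts and then thinned to 5000 UMIs.

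The single criteria removed unequal parts of the libraries. At least 10 UMIs of Hist1h2ap were found in 543 control and 1486 knockout cells. The ceiling on Ube2c, which drives cyclin breakdown in mitosis, Nusap1, a spindle protein, and Cenpf, a kinetochore protein, removed 481 (88.6%) and 960 (64.6%) of these. Il2ra, the CD25 chain that marks thymocytes before and during pre-T-cell receptor selection, then removed 6 of 62 control cells (9.68%) and 234 of 526 knockout cells (44.5%). An Il2ra UMI was also seen in 4.49% of 5500 resting control cells (median depth 3324.5 UMIs) and 32.8% of 3119 resting knockout cells (median 4791), where resting means neither Mki67 nor Top2a and at least 1 Rag1 UMI. How much of the Il2ra signal is free RNA was not tested, and without this criterion the knockout share was 6.97%.

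At the edges of the selection, 12 control and 59 knockout cells lay just inside with 10 to 12 Hist1h2ap UMIs, and 18 and 89 cells just outside with 7 to 9. A sum of 3 or 4 for the ceiling genes was seen in 21 and 81 selected cells, and a sum of 5 or 6 kept out 23 and 59. Of 17 barcodes found in both libraries, 0 control and 2 knockout cells were among those selected. No doublet caller was run, and 6 control and 0 knockout cells lay above the 99th percentile of UMIs of their library.

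Hist1h2ap itself, which chose the cells, had a median of 46 UMIs per selected control cell (10 to 161) and 29 per knockout cell (10 to 353). The knockout cells lay at both ends of this range. They were 122 cells with 10 to 19 UMIs, 34 with 20 to 39, 22 with 40 to 79 and 110 with 80 or more, against 16, 10, 15 and 14 control cells. At 160 UMIs or more there were 74 knockout cells and 1 control cell.

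**Figure D1:**
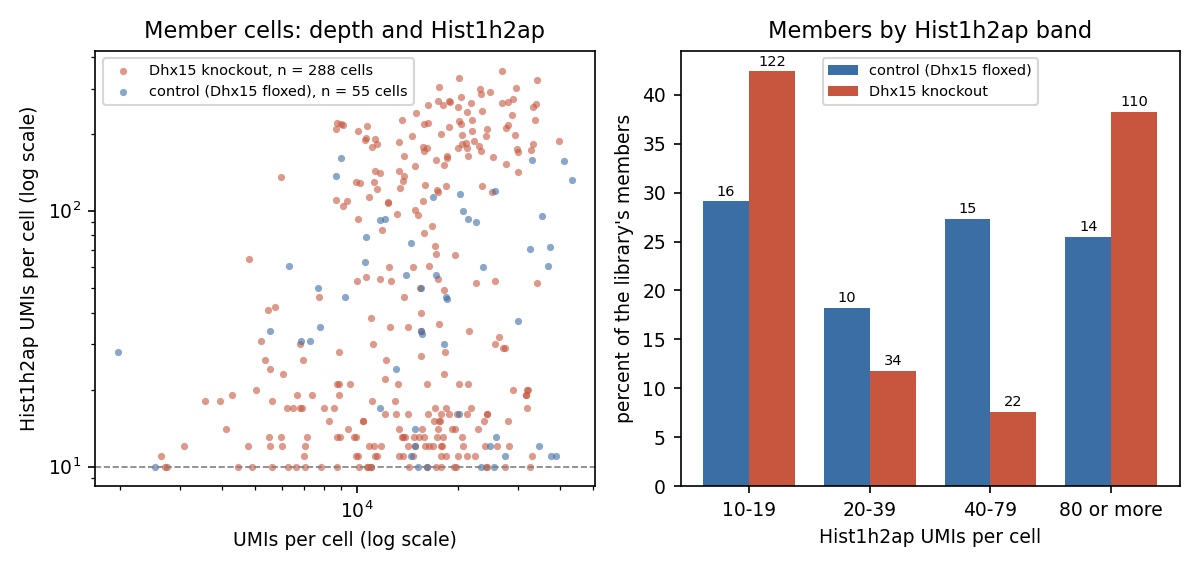
Selected cells by depth and Hist1h2ap. Left, each point is 1 cell with its total UMIs (x, log scale) and its Hist1h2ap UMIs (y, log scale), and the dashed line is the criterion of 10 UMIs. Right, the percent of each library's selected cells in 4 bands of Hist1h2ap UMIs, with the number of cells above each bar. The 288 knockout cells gather at 10 to 19 and at 80 or more UMIs, the 55 control cells spread more evenly.

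The label was checked against the other 3 marker genes. The linker histone gene Hist1h1b was at 1310 CPM in selected control cells and 1045 CPM in knockout cells, against 67.6 and 32.3 CPM in resting double positive cells. Tyms, which makes thymidylate from deoxyuridylate, was at 388 and 223 CPM against 14.3 and 18.1 CPM. Tk1, the S phase thymidine kinase, was at 170 and 85.6 CPM against 2.68 and 2.72 CPM. All 3 markers were thus far above the resting level in both libraries, which describes the selection and is no test. Other genes highest over resting cells, among those with at least 100 UMIs, were the PCNA partner 2810417H13Rik, the origin licensing factors Cdc6 and Mcm10, the exonuclease Exo1 and the recombination factor Rad51ap1.

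By Tyms and Hist1h1b, the weakest evidence for S phase lay in the lowest band. Between 10 and 19 Hist1h2ap UMIs, Tyms was at 265 CPM in control and 144 CPM in knockout cells, and Hist1h1b at 213 and 151 CPM. At 80 UMIs or more, Tyms was at 473 and 288 CPM and Hist1h1b at 2384 and 2006 CPM. Other S phase genes were mixed in control cells. In the lowest and highest bands, control Mcm6 was at 509 and 514 CPM and Ccne2 at 201 and 202 CPM. Control Rrm2 was at 627 and 831 CPM and Pcna at 480 and 654 CPM. Knockout Mcm6 was at 469 and 625 CPM and Ccne2 at 101 and 173 CPM. Resting cells chosen without a histone criterion (Mki67, Top2a, Il2ra, Lyz2 and Cd79a at 0, at least 1 Rag1 UMI) had a median of 0 Hist1h2ap UMIs in control and 1 in knockout, with maxima of 12 and 16. At 10 or more were 0.0193% of 5179 such control cells and 0.634% of 2052 knockout cells. Of those with at least 10000 UMIs, nearer to the depth of the selected cells, 1 of 76 control cells (1.32%) was at 10 or more. In knockout it was 4 of 127 (3.15%), and the medians of these deep cells were 0 and 2. The lowest band thus overlaps the top of the range of resting cells, more so in the knockout library, and how many of its cells are in S phase was not tested.

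The targeted gene was checked first. Dhx15 had 220 UMIs in the control cells and 387 in the knockout cells, which is 207 and 83.2 CPM. Single control cells held 0 to 12 UMIs with a median of 4, and single knockout cells 0 to 6 with a median of 1, so the cells overlapped. The ratio was 0.402 (0.340 to 0.477). Dhx15 RNA was lower in the knockout in 3 other cell classes too, at ratios of 0.443 in replication entry cells, 0.412 in G2 and mitosis cells and 0.553 in resting double positive cells. Reads at the 3′ end of a transcript need not cover the deleted part, so these UMIs do not measure functional Dhx15.

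Those 3 classes serve as comparison for the selected cells. All passed the same cell filters with Il2ra, Lyz2 and Cd79a at 0. Replication entry cells (125 control, 333 knockout) had 1 to 9 Hist1h2ap UMIs, at least 5 UMIs of Mcm3, Mcm5, Mcm6 and Mcm7 together, and fewer than 5 of the ceiling genes. G2 and mitosis cells (566 and 741) had at least 5 UMIs of the ceiling genes. Resting double positive cells (3282 and 793) had Rag1 and none of Hist1h2ap, Mki67 or Top2a. Of all filtered control and knockout cells, replication entry cells made up 1.42% and 4.59%, and G2 and mitosis cells 6.42% and 10.2%. Resting double positive cells made up 37.2% and 10.9%. A higher knockout share was thus not particular to the selected cells, and each share also depends on the other cells of its library. Differences between classes were not tested.

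Over the 7621 genes with at least 50 UMIs in both sums together, 639 (8.38%) were called higher and 545 (7.15%) lower in the knockout cells, and the median log2 ratio was −0.04. With a total that left out histone, ribosomal and mitochondrial genes, the counts were 808 higher and 391 lower, so that higher genes made up 67.4% of the calls in place of 54.0%. Many calls rested on few UMIs. Among the 3823 genes with at least 200 UMIs, 144 (3.77%) were called higher and 141 (3.69%) lower. The knockout sum of 4650829 UMIs decided most of the filter, since the control sum was 1063748 UMIs, so genes that are high in knockout cells passed more easily. With at least 20 control UMIs required as well, a filter that in turn favours genes high in control, 5700 genes remained and 179 were called higher and 439 lower.

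Of 30 nucleotide synthesis genes with at least 50 UMIs, 1 was called higher and 3 lower (10.0%, beside 7.15% of all genes), with a median log2 ratio of −0.22 beside −0.04 over all genes. Among the 3 lower ones were Tyms and Tk1. Tyms had 1 to 21 UMIs per control cell (median 7) and 0 to 16 per knockout cell (median 3), at a ratio of 0.575 (0.513 to 0.646). Tk1 had 0 to 11 (median 2) and 0 to 10 (median 1), at a ratio of 0.503 (0.421 to 0.603). Both medians were lower in knockout cells, and both ranges overlapped. Tyms UMIs were found in 55 of 55 control and 232 of 288 knockout cells (80.6%), and after thinning to 5000 UMIs, which left out 2 and 12 cells, in 86.8% and 56.2%. Tk1 UMIs were found in 87.3% and 62.5% of cells in raw counts and in 56.6% and 37.7% after thinning. Resting double positive cells, which should lack these genes, had Tyms in 4.66% of 3282 control and 6.81% of 793 knockout cells and Tk1 in 0.945% and 1.13%, in raw counts at median depths of 3222 and 3492 UMIs. Only 329 and 202 of them had the 5000 UMIs needed for thinning, and these held Tyms in 4.56% and 8.42% and Tk1 in 1.82% and 0.990%.

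Shmt1, which supplies one-carbon units for thymidylate, was the third called lower, at 0.657 (0.522 to 0.832). Rrm2, the S phase subunit of ribonucleotide reductase, had 1 to 32 UMIs per control cell (median 13) and 0 to 33 per knockout cell (median 8), with a ratio of 0.686 (0.632 to 0.746) that did not pass the 1.5-fold rule. From the lowest to the highest band of Hist1h2ap, the Rrm2 ratio was 0.451, 0.472, 0.911 and 0.808. Dut, which removes dUTP, stood at 0.855 and the thymidylate kinase gene Dtymk at 1.17. The nucleoside diphosphate kinase gene Nme2 was the only member called higher, at 1.81 (1.38 to 2.43), while its neighbour and close relative Nme1 stood at 0.969. In cells with Cd8a or Cd4 and no Trdc (14 control, 46 knockout) Nme2 stood at 1.15.

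The ratios of Tyms and Tk1 in the other cycling classes lay near those of the selected cells. Tyms stood at 0.537 in replication entry and 0.664 in G2 and mitosis cells, and Tk1 at 0.467 and 0.539. In resting double positive cells both were low, and their ratios of 1.27 and 1.01 had wide intervals. The lower Tyms and Tk1 levels were also seen within each band of Hist1h2ap. From the lowest to the highest band the Tyms ratio was 0.545, 0.401, 0.677 and 0.609, and the Tk1 ratio 0.577, 0.433, 0.630 and 0.462.

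**Figure D2:**
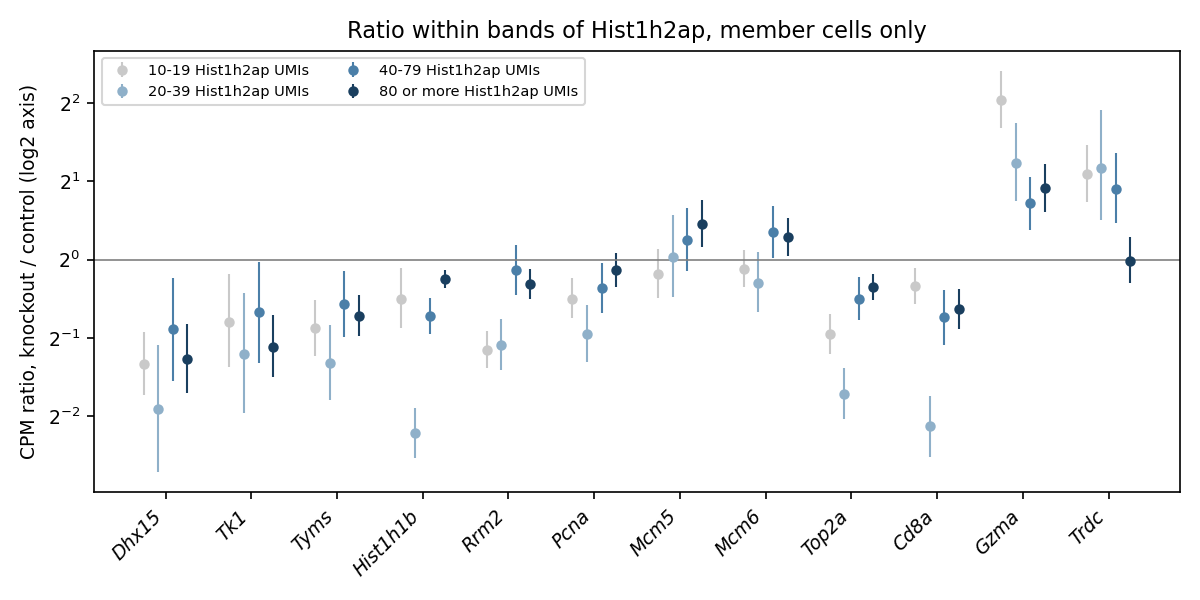
Ratio of knockout to control CPM (y, log2 axis) of 12 genes within 4 bands of Hist1h2ap UMIs, selected cells only. Points are ratios and bars exact 95% counting intervals; the line marks equal levels. Dhx15, Tk1 and Tyms lie below 1 in every band, while Trdc falls from 2.13 in the lowest band to 0.992 in the highest.

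Origin licensing genes lay closer to equal levels. Mcm5 and Mcm6, subunits of the replicative helicase, had ratios of 1.13 (1.01 to 1.28) and 1.08 (0.982 to 1.18). Mcm5 had 0 to 16 UMIs per control cell and 0 to 21 per knockout cell, with medians of 6 in both. Mcm3 stood at 0.924, Mcm7 at 0.873, and Cdc6, which loads the helicase, at 1.08. Of 26 licensing and firing genes, 0 were called higher (beside 8.38% of all genes) and 1 lower (3.85%, beside 7.15%). The lower one was the GINS subunit gene Gins3 at 0.581 (0.397 to 0.864), and the median log2 ratio of the list was −0.11.

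Of 34 genes of the working fork 0 were called higher and 4 lower (11.8%, beside 7.15% of all genes), with a median log2 ratio of −0.24 that moved to −0.03 in cells with at least 80 Hist1h2ap UMIs. Lig1, the ligase that joins Okazaki fragments, had 0 to 17 UMIs per control cell (median 8) and 0 to 20 per knockout cell (median 3), at 0.593 (0.531 to 0.662). Rnaseh2b, a subunit of the nuclease that removes ribonucleotides from DNA, stood at 0.606 (0.504 to 0.730), and Pola1, the catalytic subunit of the priming polymerase, at 0.635 (0.514 to 0.788). Pcna, the sliding clamp, stood at 0.776 (0.710 to 0.848), and Rfc1, the large subunit of its loader, at 1.00. Chtf18, of an alternative clamp loader, was the fourth called lower, at 0.448 (0.272 to 0.757) from 25 and 49 UMIs.

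Of 65 replication-dependent histone genes 35 had at least 50 UMIs. Of these 2 were called higher, 16 lower (45.7%, beside 7.15% of all genes) and 17 neither, with a median log2 ratio of −0.46. The 2 higher ones were Hist1h2ap, which the selection used, and the H3 gene Hist1h3b at 1.67 (1.20 to 2.38). Among the lower ones were the H3 genes Hist1h3c at 0.425 (0.333 to 0.544), Hist1h3i at 0.367 and Hist1h3a at 0.478, and the H2B gene Hist1h2bm at 0.474. Those are low transcripts, with 0 to 10 UMIs of Hist1h3c per control cell and 0 to 6 per knockout cell.

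The more abundant histones had ratios nearer to 1. Hist1h1b had 0 to 99 UMIs per control cell (median 16) and 0 to 179 per knockout cell (median 6), at a ratio of 0.798 (0.752 to 0.848), and the H2A gene Hist1h2ae stood at 0.725 (0.669 to 0.787). Hist1h1b differed by band, at 0.708, 0.216, 0.607 and 0.841 from the lowest to the highest. Slbp, which binds the histone stem loop, stood at 0.744 (0.685 to 0.810), and at 0.519, 0.635, 0.952 and 0.844 by band. The histone median stayed below 0 under all 18 alternatives, between −0.91 and −0.02, the latter with fewer than 2 UMIs of the ceiling genes. It was −0.38 in replication entry (20 genes), −0.81 in G2 and mitosis (56 genes) and −1.02 in resting double positive cells (30 genes). These medians are over the histone genes with at least 50 UMIs in each class, so the gene sets differ. Many of these genes encode near-identical proteins, and reads could be split between copies, so single histone genes are uncertain.

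**Figure D3:**
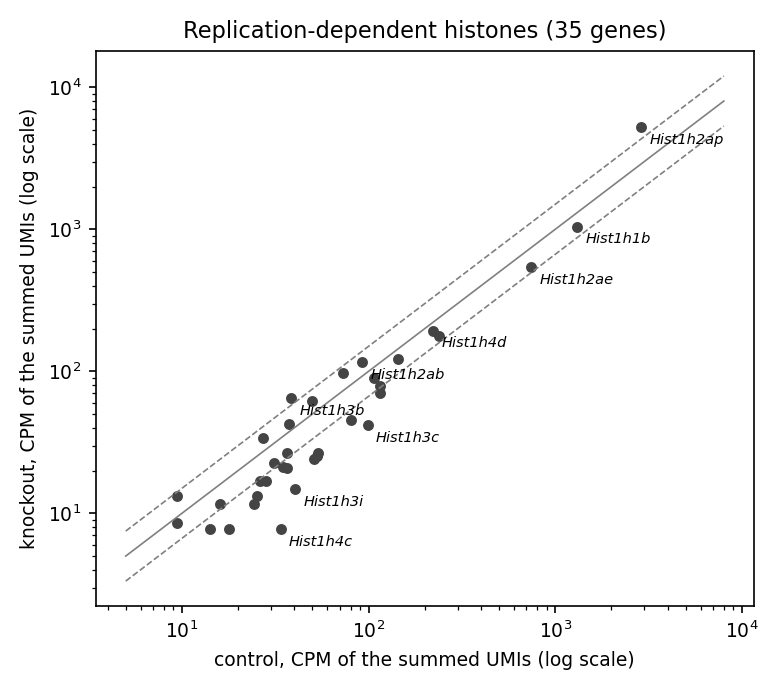
CPM of 35 replication-dependent histone genes with at least 50 UMIs in the selected control cells (x, log scale) and knockout cells (y, log scale). The solid line marks equal levels and the dashed lines 1.5-fold; Hist1h2ap and Hist1h3b lie above the upper line and 16 genes below the lower one.

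Of 26 genes of chromatin assembly and maintenance 1 was called higher and 1 lower (3.85%, beside 7.15% of all genes), with a median log2 ratio of −0.30. The higher one was the centromere histone gene Cenpa at 1.58 (1.16 to 2.19). The lower one, Uhrf1, which guides maintenance methylation to new DNA, had 0 to 20 UMIs per control cell (median 8) and 0 to 21 per knockout cell (median 4), at 0.647 (0.582 to 0.721). Dnmt1, the methyltransferase it guides, stood at 0.672 (0.602 to 0.752), and Ezh2, the H3K27 methyltransferase, at 0.754 (0.681 to 0.836), and neither passed the 1.5-fold rule. The abundant chromatin proteins Hmgb1 and Hmgb2 stood at 0.813 and 0.812.

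Of 25 regulators of the step from G1 into S, 1 was called higher and 5 lower (20.0%, beside 7.15% of all genes), with a median log2 ratio of −0.22. Ccne2, a cyclin that starts S phase, stood at 0.659 (0.565 to 0.770), the repressor E2f8 at 0.584 (0.474 to 0.722), the activator Mybl2 at 0.578 (0.452 to 0.745) and the CDK inhibitor gene Cdkn2c at 0.568 (0.445 to 0.731). Cdk4 stood at 0.937. Ccnd2, an early cyclin, was called higher at 1.56 (1.14 to 2.18), but stood at 0.602 in cells with Cd8a or Cd4 and no Trdc.

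The group with the lowest median after the histones was that of G2 and mitosis genes outside the criteria. Birc5, survivin of the chromosomal passenger complex, had 0 to 13 UMIs per cell in both libraries, with medians of 3 in control and 1 in knockout, and a ratio of 0.524 (0.447 to 0.615). Its partner kinase gene Aurkb stood at 0.550 (0.430 to 0.707). Top2a, which untangles sister DNA, had medians of 15 and 7 UMIs and a ratio of 0.650 (0.602 to 0.703), and Mki67, a coat of mitotic chromosomes, medians of 7 and 3 and a ratio of 0.631 (0.570 to 0.701). From the lowest to the highest band of Hist1h2ap, the Top2a ratio was 0.516, 0.305, 0.708 and 0.784. The Mki67 ratio was 0.484, 0.303, 0.555 and 0.795. Of 39 members, 2 were called higher and 10 lower (25.6%, beside 7.15% of all genes), with a median log2 ratio of −0.35. The criteria cap 3 genes of the same programme, so the level of this group depends on the selection.

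**Figure D4:**
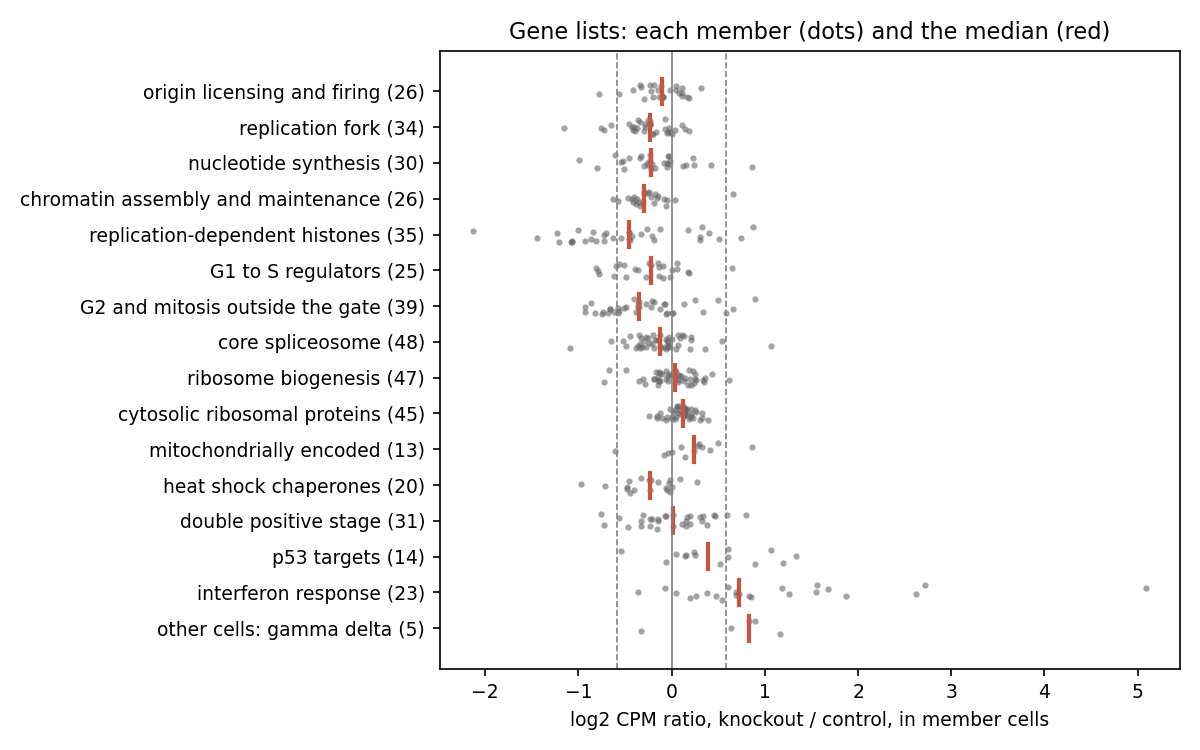
Log2 ratio of knockout over control (x) for the members with at least 50 UMIs of 16 gene lists (rows, number of such members in brackets) in the selected cells. Grey dots are genes, red bars list medians, dashed lines 1.5-fold; medians run from −0.46 for the replication-dependent histones to 0.83 for the gamma delta list.

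Genes of splicing and ribosome assembly, the pathways of Dhx15, were called at shares near those of well measured genes. Of all genes 8.38% were called higher and 7.15% lower, and of those with at least 200 UMIs 3.77% and 3.69%. Of 48 core spliceosome genes 1 was called higher (2.08%) and 2 lower (4.17%), with a median log2 ratio of −0.12. Ddx46, the helicase Prp5 of the U2 snRNP, had 0 to 16 UMIs per control cell (median 3) and 0 to 8 per knockout cell (median 1), at 0.470 (0.390 to 0.568). U2af2, which reads the polypyrimidine tract, stood at 0.637, and the second-step factor Slu7 at 2.09 (1.34 to 3.41). Ddx46 was lower in all 3 other classes too, at 0.408, 0.382 and 0.440, whereas Slu7 stood at 1.35, 0.911 and 0.907 there. In cells selected anew after thinning to 5000 UMIs Slu7 stood at 1.07.

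Of 14 measured DEAH-box helicases 1 was called higher (7.14%, beside 8.38% of all genes) and 3 lower (21.4%, beside 7.15%), Dhx15 included. The other two called lower were Dhx29 at 0.557 (0.359 to 0.882) and Dhx32 at 0.586 (0.322 to 1.12), and the one called higher was Dhx34 at 1.75 (0.747 to 5.02) from 6 and 46 UMIs. The intervals of Dhx32 and Dhx34 held 1. Dhx9 stood at 0.906 and Dhx36 at 1.32 (1.06 to 1.67), within the 1.5-fold rule. Of 16 measured G-patch proteins that pair with Dhx15, 1 was called higher, Aggf1 at 1.56 (1.03 to 2.45), and 0 lower. Aggf1 turned to 0.624 with thinned cells, and Dhx29 to 1.03 in cells with Cd8a or Cd4 and no Trdc. Of 38 SR and hnRNP regulators 0 were called higher and 1 lower, Hnrnpul2 at 0.555 (0.452 to 0.686). Ribosome biogenesis genes had a median log2 ratio of 0.03 with 1 of 47 called higher (2.13%) and 2 lower (4.26%). The 45 cytosolic ribosomal protein genes had a median of 0.12 with 0 called in either direction.

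Chaperones and mitochondrial transcripts included some of the best measured differences. Hspa8, the constitutive Hsp70, had 0 to 138 UMIs per control cell (median 43) and 0 to 121 per knockout cell (median 20), at 0.609 (0.583 to 0.637). Hsph1, its exchange factor, stood at 0.509 (0.403 to 0.647) but at 1.07 in cells with Cd8a or Cd4 and no Trdc, and Hsp90ab1 at 0.903. Of 20 heat shock genes 0 were called higher and 2 lower (10.0%, beside 7.15% of all genes), with a median log2 ratio of −0.23. Among 13 genes encoded in mitochondria, mt-Co1 was called higher at 1.81 (1.76 to 1.87) and mt-Nd3 lower at 0.654 (0.602 to 0.712). The median percent of UMIs in mitochondrial genes was 2.95% in control and 3.89% in knockout cells, and none of 36 nuclear genes of oxidative phosphorylation was called.

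**Figure D5:**
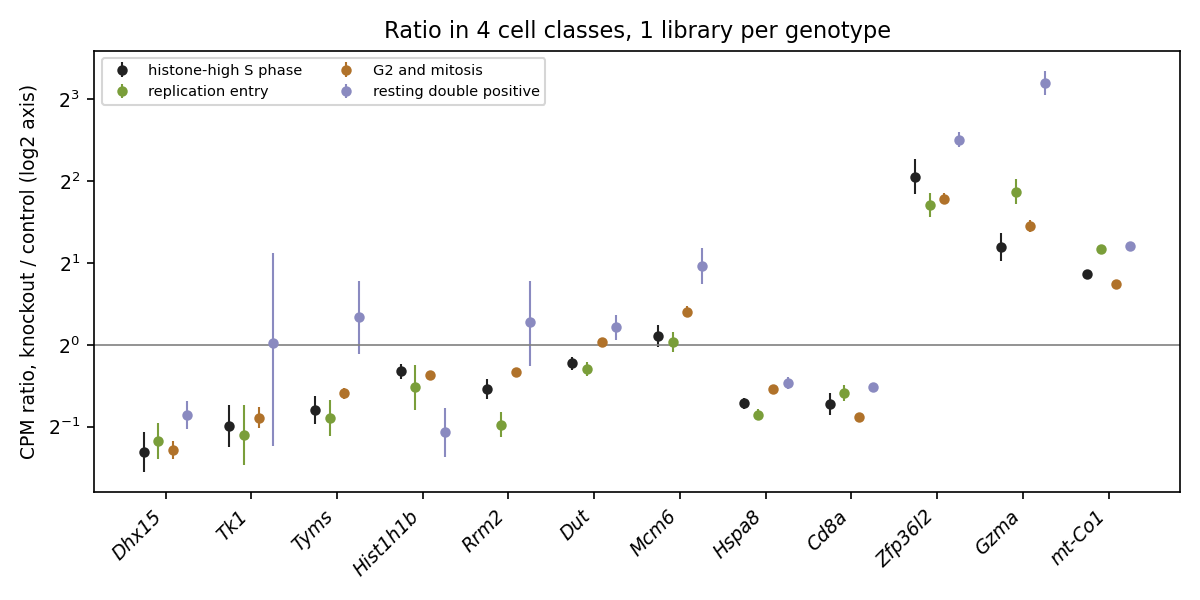
Ratio of knockout to control CPM (y, log2 axis) of 12 genes in the histone-high S phase cells and in 3 other classes of thymus cells. Points are ratios and bars exact 95% counting intervals; Dhx15, Hspa8 and Cd8a lie below 1 and Zfp36l2, Gzma and mt-Co1 above 1 in all 4 classes.

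Of 28 p53 target genes 14 had at least 50 UMIs, of which 6 were called higher (42.9%, beside 8.38% of all genes) and 0 lower. The median log2 ratio of these 14 was 0.39. The count of called members rested on low ones, since only 8 had at least 20 control UMIs. Of those 8, 1 was called higher (12.5%, beside 3.14% of all genes under that filter), and their median was 0.19. Ddit4, an inhibitor of mTORC1, had 0 to 5 UMIs per control cell (median 0) and 0 to 9 per knockout cell (median 1), at 2.52 (1.79 to 3.65). The death receptor gene Fas stood at 2.09 (1.22 to 3.83) and the repair gene Xpc at 1.86 (1.07 to 3.51), both from few UMIs, and their lowest ratios over the alternatives were 0.831 with thinned cells and 1.16 with criteria per 10000 UMIs. Bax stood at 1.11 and Trp53 itself, which is not on the list, at 1.08. The list's median was 0.11 without the Il2ra criterion. Over the members with at least 50 UMIs in each of the other classes, it was 0.0046 in replication entry, 0.024 in G2 and mitosis and 0.35 in resting double positive cells. Ddit4 stood at 1.52, 1.36 and 1.87 in these classes.

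Coreceptor transcripts were found in unequal shares of the selected cells of the libraries. After thinning, with intervals that overlapped, Cd8a and Cd4, the coreceptors, were both found in 30.2% of control (18.3 to 44.3%) and 21.4% of knockout cells (16.7 to 26.7%), and neither in 18.9% (9.44 to 32.0%) and 37.7% (31.9 to 43.7%). In raw counts both were found in 56.4% and 38.5%, and neither in 5.45% and 17.4%. Cd8a had 0 to 36 UMIs per control cell (median 10) and 0 to 29 per knockout cell (median 4), at 0.605 (0.552 to 0.663). Dntt, the polymerase that adds bases at receptor gene joints, stood at 1.12, Rag1 at 1.11, and Ptcra, the pre-T alpha chain, at 0.828. Of 31 double positive stage genes 2 were called higher and 2 lower (6.45% each, beside 8.38% and 7.15% of all genes). Their median log2 ratio was 0.02 and changed sign in 8 of 18 alternatives, and 22 genes of the pre-T-cell receptor stage had a median of −0.04.

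Some maturation genes were called higher, while the T-cell receptor genes Cd3g, Trbc1 and Trbc2 were not. Cd3g, a signalling chain of the receptor, had 0 to 32 UMIs per control cell (median 12) and 0 to 59 per knockout cell (median 14), at 1.38 (1.28 to 1.5), and the beta chain constant gene Trbc1 stood at 1.37, with Trbc2 at 1.01. The similar constant genes may share reads. Id3, an inhibitor of E proteins induced by receptor signals, stood at 1.93 (1.59 to 2.35), the factor Tox at 1.74 (1.34 to 2.30) and the class I gene H2-D1 at 1.87 (1.58 to 2.24). Id3 stood at 1.13 with thinned cells. Of 14 measured maturation genes 5 were called higher (35.7%, beside 8.38% of all genes) and 0 lower, with a median log2 ratio of 0.32. Of the 10 with at least 20 control UMIs 3 were called higher (30.0%, beside 3.14% of all genes under that filter).

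Markers of gamma delta cells were higher in the selected knockout cells. Trdc, the delta constant gene, had 0 to 33 UMIs per control cell and 0 to 55 per knockout cell with medians of 3 in both, at 1.55 (1.37 to 1.77). Tcrg-C2, a gamma constant gene, stood at 2.24 (1.81 to 2.81), with 51 of its 92 control UMIs in 3 cells. Of 5 measured list members 4 were called higher (80.0%, beside 8.38% of all genes) and 0 lower. The summed level of the list was 509 CPM in control and 784 CPM in knockout cells, while Sox13, a defining factor, had 1 and 16 UMIs. In cells with at least 80 Hist1h2ap UMIs the list's median log2 ratio was −0.01, and the ratios were 0.992 for Trdc and 1.09 for Tcrg-C2. Trdc was found in 56.6% of control and 65.9% of knockout cells after thinning, and in 11.6% of the 329 control and 48.0% of the 202 knockout resting double positive cells deep enough to thin. Over all 3282 and 793 resting cells in raw counts it was found in 8.01% and 24.8%, so the share of resting cells with Trdc was higher in knockout in both counts. Of the thinned resting cells, 4.86% in control and 16.8% in knockout had neither Cd8a nor Cd4. Whether free RNA or another mix of cells gave the Trdc signal in resting cells was not tested. The similar gamma constant genes may share reads, and the part of gamma delta cells in the other differences was not tested.

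Gzma, a granzyme, was higher in the selected knockout cells and, like Trdc, was found in a larger share of resting knockout than resting control cells. It had 0 to 45 UMIs per control cell (median 1) and 0 to 115 per knockout cell (median 6), at 2.29 (2.03 to 2.58). After thinning, it was found in 50.9% and 75.4% of the selected cells deep enough. Of the 329 and 202 resting double positive cells deep enough, 13.4% and 58.9% held it. Over all resting cells in raw counts it was found in 9.51% and 36.4%, and over these the ratio of levels was 9.18. The innate-like list that holds it had a summed level of 317 and 730 CPM, with Klrd1, Klrb1c, Ncr1, Gzmb, Tbx21 and Eomes at 0 UMIs in control and 2 to 15 in knockout cells. Limiting both libraries to cells with Cd8a or Cd4 and no Trdc left 14 control and 46 knockout cells, in which the Gzma ratio was 1.31, the Tyms ratio 0.437, the Tk1 ratio 0.574 and the Dhx15 ratio 0.413.

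Several defining markers of other cell types were at 0. The B lineage genes Ms4a1, Ebf1 and Pax5 were at 0 UMIs in both libraries, as were the myeloid gene Adgre1 and the stromal genes Krt5, Krt8 and Foxn1. A count of 0 allows up to 3 UMIs. The summed B lineage list stood at 346 and 367 CPM, nearly all from Ighm, the immunoglobulin mu constant gene, with 349 of 368 and 1612 of 1705 UMIs in 53 of 55 and 261 of 288 cells. The dendritic list stood at 179 and 280 CPM, a ratio of 1.57 (1.34 to 1.83), of which the interferon-responsive Bst2 made up 123 of 190 and 954 of 1301 UMIs, while Siglech, Flt3 and Xcr1 were at 0. The summed myeloid list stood at 144 and 160 CPM, of which Cst3, found in 45 of 55 and 239 of 288 selected cells, made up 139 of 153 and 595 of 746 UMIs. Tyrobp, a myeloid adaptor gene, had 2 and 51 UMIs. All 86 UMIs of the haemoglobin gene Hbb-bt lay in 1 knockout cell.

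The interferon response list had the largest share of called genes among the lists of at least 10 measured members, but several members passed the filter through the knockout sum, where they are high. Of 30 members 23 had at least 50 UMIs, of which 15 were called higher (65.2%, beside 8.38% of all genes) and 0 lower. The median log2 ratio of these 23 was 0.72. Of the 12 with at least 20 control UMIs 6 were called higher (50.0%, beside 3.14% of all genes under that filter) and 0 lower, with a median of 0.54. Bst2, an antiviral membrane protein, had 0 to 14 UMIs per control cell (median 1) and 0 to 35 per knockout cell (median 2), at 1.77 (1.47 to 2.16). Rtp4 had 8 and 231 UMIs, at 6.60 (3.30 to 15.5), Zbp1, a nucleic acid sensor, 9 and 144, at 3.66 (1.87 to 8.17), and Trim30a 14 and 179, at 2.92 (1.7 to 5.46). The most abundant members lay nearer to 1, with Ly6e at 1.14 and the immunoproteasome gene Psmb8 at 0.951. Ifit1 had 1 UMI in control and 149 in knockout cells, of which 108 came from 3 cells, and with thinned cells its ratio was 1.32. The list's median stayed above 0 in all 18 alternatives, between 0.33 with thinned cells and 1.46 at 80 or more Hist1h2ap UMIs. Over the members with at least 50 UMIs in each class, it was 0.30 in replication entry, 0.78 in G2 and mitosis and 0.64 in resting double positive cells. The medians of all genes there were −0.06, −0.09 and −0.05. Higher levels of this list were thus not particular to the selected cells.

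Among the 12 genes ranked highest over the whole table, Gh, the growth hormone gene, had no UMI in control cells and 359 in 173 of 288 knockout cells, at least 27.4-fold higher against a floor of 3 counts over the control sum. It had no UMI in any of the 8818 control cells, which allows a share of up to 0.0340% of cells with a UMI, and was found in 34.0% of all knockout cells, and so was seen well outside the selected cells. Whether these UMIs come from the mouse's own Gh gene was not tested, and the Cre driver is not stated. Zfp36l2, which promotes decay of AU-rich messages, had 0 to 28 UMIs per control cell (median 2) and 0 to 50 per knockout cell (median 10), at 4.14 (3.58 to 4.82). It was higher in all 3 other classes too, at 3.27, 3.44 and 5.68.

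Pik3ip1, an inhibitor of PI3 kinase, stood at 4.01 (2.46 to 6.98), the glucocorticoid-induced gene Tsc22d3 at 3.35 (2.30 to 5.07) and Plac8 at 2.65 (2.17 to 3.26). Pik3ip1 stood at 1.76, 1.39 and 1.29 in the other classes, and at 1.58 with criteria per 10000 UMIs. The predicted gene Gm10073 stood at 5.67 (4.80 to 6.74). Dynlt1b, at 3.56, and the class I gene H2-Q7, at 10.9 (4.17 to 40.3) from 4 and 190 UMIs, belong to families of similar copies and are uncertain. Ccl5 had 0 and 105 UMIs, of which 94 lay in 1 cell.

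Among the 12 ranked lowest beside Dhx15 and the histone genes Hist1h3c and Hist1h3i, PISD stood at 0.291 (0.246 to 0.344) and at 0.393, 0.235 and 0.335 in the other classes. Mxd3, a MAX partner expressed in S phase, stood at 0.348 (0.238 to 0.512), the phosphohistidine phosphatase gene Phpt1 at 0.363 (0.278 to 0.474) and Cd52, a lymphocyte surface glycoprotein, at 0.412 (0.354 to 0.480). Bcas2, a subunit of the spliceosome's Prp19 complex, had 0 to 12 UMIs per control cell (median 4) and 0 to 9 per knockout cell (median 1), at 0.468 (0.400 to 0.550), and stood at 0.483, 0.545 and 0.575 in the other classes. The actin-binding Lsp1 stood at 0.457 and Erdr1 at 0.501. Ly6k and 2900079G21Rik completed the group at 0.394 and 0.302. Of the control UMIs, 3 cells held 167 of 265 for Cd52 and 69 of 109 for Ly6k. Without the highest cell of each library Cd52 stood at 0.518 and Ly6k at 0.585, and with fewer than 2 UMIs of the ceiling genes at 0.936 and 0.95.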

How the data were processed

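Thymus cells of 1 DHX15-flox and 1 DHX15-KO mouse library were measured by droplet single-cell RNA-seq. The authors deposited whole UMI counts made with Cell Ranger 6.0.1, per the file headers. The submitters' processing notes also name Cell Ranger 6.0.2, Scanpy 1.7.1 and the build mm10, without saying what each did. Each matrix held 28692 genes, and 67 rows with a repeated symbol were summed.

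Raw counts were summed over selected cells with Python 3.11.15, numpy 2.4.6, scipy 1.17.1 and pandas 2.3.3. Sums were 1063748 and 4650829 UMIs. Ratios have exact conditional binomial intervals and shares exact Clopper-Pearson intervals. No test across libraries was possible. The ratio calculation was tested on simulated data. No doublet caller, clustering or normalisation beyond CPM was used.

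Named genes were the selection genes, the markers, Dhx15, the 12 highest and 12 lowest among genes past 1.5-fold with at least 100 UMIs (ranked by the interval bound nearest to 1), up to 5 most changed and 4 most abundant members per list, and the 12 genes highest over resting cells. Sox13, Tyrobp, Hbb-bt, H1fx, Ighm, Cenpa, Chtf18, Dhx32, Dhx34 and the marker genes at or near 0 UMIs were named after their values were seen. The cells, lists and rules were chosen with earlier results of these data known. Alternatives changed thresholds, depth, scaling, filters and cell choice, and 4 of 18 were chosen after seeing the data. Some genes this rule takes are left out of the text. Bulk data of the series were not used here.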

Additional observations from a re-analysis of the deposited data

Results flagged for a closer look

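Among the named genes, 3 of the cell cycle were past 1.5-fold lower in the histone-high S phase cells and past 1.5-fold higher in resting double positive cells of the same 2 libraries. Birc5 stood at 0.524 in the selected cells and at 1.89 (1.35 to 2.64, 105 and 57 UMIs) in resting cells. Pola1 stood at 0.635 and at 1.53 (0.942 to 2.41). Nusap1, which the selection caps, stood at 0.516 and at 1.59 (0.947 to 2.59). With 1 library per genotype these differences were not tested, and the resting intervals of Pola1 and Nusap1 held 1. Mcm5, at 1.13 in the selected cells, and Tk1, at 1.01 in resting cells, did not show the pattern. List medians are over the members with at least 50 UMIs in each class, so the gene sets can differ. Median log2 ratios in selected and resting cells were −0.35 and 0.19 for the G2 and mitosis list and −0.24 and 0.24 for fork genes. They were −0.22 and 0.22 for nucleotide synthesis and −0.11 and 0.19 for origin licensing. Both medians were below 0 for chromatin assembly (−0.30 and −0.18), G1 to S regulators (−0.22 and −0.09), checkpoint and repair (−0.29 and −0.09) and replication-dependent histones (−0.46 and −1.02).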

How the results depend on the processing

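No paired analysis was possible because each thymus group has 1 library. The share of selected cells (control and knockout) was 0.442% and 2.29% at 20 or more Hist1h2ap UMIs, 1.30% and 7.59% at 5 or more, 1.62% and 6.58% with criteria per 10000 UMIs, 4.03% and 8.84% with cells thinned to 5000 UMIs, and 0.238% and 1.93% with fewer than 2 UMIs of the ceiling genes. With mitochondrial UMIs under 5% the knockout share was 4.86%. The knockout share was the higher one in each of these. Genes called higher numbered 362 with thinned cells, 1072 at 20 or more UMIs over both sums, 144 at 200 or more, and 271 in cells with Cd8a or Cd4 and no Trdc. Genes called lower numbered 930 with the mean of per-cell CPM, 907 at 20 or more UMIs, 141 at 200 or more and 235 in cells with Cd8a or Cd4 and no Trdc. The Dhx15 log2 ratio was −1.31 and became −1.66 with thinned cells, with ratios between 0.316 and 0.442 over all 18 alternatives. Among genes named as past 1.5-fold, the log2 ratio changed sign for Ccnd2 (−0.059 at 5 or more Hist1h2ap UMIs, −0.73 in cells with Cd8a or Cd4 and no Trdc), Fas (−0.044 with criteria per 10000 UMIs, −0.27 with thinned cells), Aggf1 (−0.68 with thinned cells), and Dhx29 and Hsph1 (0.046 and 0.099 in cells with Cd8a or Cd4 and no Trdc). More named genes fell within the 1.5-fold rule than changed sign. Of 111 named genes checked, 21 were no longer past 1.5-fold with criteria per 10000 UMIs and 16 with thinned cells. At 80 or more Hist1h2ap UMIs, 14 of 110 were no longer past it. The causes were not tested.

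A further 4 alternatives were chosen after seeing the data. At 80 or more Hist1h2ap UMIs the shares were 0.159% and 1.51%, the log2 ratio of Trdc was −0.012 and so was the median of the gamma delta list. Without the Il2ra criterion the knockout share was 6.97% and 1016 genes were called higher. With each gene's highest cell left out in each library, 324 genes were called lower, a setting that takes a larger part of the 55 control than of the 288 knockout cells and moved the median of all genes by 0.10. With at least 20 UMIs in the control sum as well, 179 genes were called higher and 439 lower, so that higher genes made up 29.0% of the calls, since this filter removes genes low in control.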

Other observations

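The median log2 ratio of all genes in the histone-high S phase cells was −0.04, with a first quartile of −0.26. Of the remaining gene lists described here, checkpoint and repair and the ATF4 response had medians below this quartile. The others lay nearer to the median of all genes. Beside the counts below, 8.38% of all genes were called higher and 7.15% lower. Of 32 checkpoint and repair genes 1 was called higher and 2 lower, with a median log2 ratio of −0.29. Parp1, a sensor of DNA breaks, stood at a ratio of 0.775 (0.656 to 0.920), and Xrcc6, the Ku70 end-binding protein, at 0.794 (0.698 to 0.905). Of 9 histone genes used outside replication 0 were called higher and 1 lower, the linker histone gene H1fx, while H2afz, the abundant H2A variant, stood at 0.780 (0.752 to 0.809).

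Genes of the ATF4 stress response had a median log2 ratio of −0.27 with 2 of 15 called higher and 1 lower, and Atf4 itself stood at 1.08. Of 12 measured amino acid transporter genes 1 was called higher and 1 lower, and Slc3a2, the heavy chain of several transporters, stood at 0.785 (0.606 to 1.03). Among MYC and its common targets 1 of 21 was called higher and 1 lower, with the nucleolar genes Ncl at 0.908 and Npm1 at 0.888. Of 22 genes of the pre-T-cell receptor stage 3 were called higher and 2 lower.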
